A study of Mus musculus with 6 samples.

Results

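The genes described here are those of antigen presentation by major histocompatibility complex (MHC) class II: *H2-Aa*, *H2-Ab1*, *H2-Eb1*, *H2-DMa*, *H2-DMb1*, *Cd74* and *Ciita*. They were taken by name and not by a threshold on their values, though earlier results of these data were known, and make up 7 of the 18089 genes in the table. All 7 passed the filter on low counts, which left 14395 genes for testing. They were measured by RNA-seq of ischemic gastrocnemius muscle from WT mice and from GPR174-knockout (Gpr174-/Y) mice, with 3 libraries in each group, 7 days after hindlimb ischemia (HLI), in which the femoral artery is ligated. All mice were young adult males of the C57BL/6 strain, the WT mice were littermate controls, and both groups underwent the same surgery. The knockout is constitutive, so every cell type of the muscle lacks the receptor, and there were no non-ischemic muscles among the libraries. The comparison asks how loss of GPR174, a receptor for lysophosphatidylserine, goes with expression of these genes in recovering muscle.

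MHC class II molecules display peptides from endocytosed proteins to CD4+ T cells, a class that includes the regulatory T cells (Tregs) with which the study is concerned. An α chain and a β chain assemble with the invariant chain, which guides them to endosomes, where proteases trim it to a short peptide that the H2-DM heterodimer exchanges for antigen. The genes are transcribed in dendritic cells, B cells and activated macrophages under the control of CIITA, a coactivator that does not bind DNA itself but is recruited by proteins on a conserved promoter module. C57BL/6 mice do not express the E α chain, so the E β chain made from *H2-Eb1* has no regular partner at the cell surface, and class II on these cells is the A molecule of *H2-Aa* and *H2-Ab1*.

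Sequences are shown for 3 members, since the shared promoter module is what CIITA acts through. RefSeq promoters on GRCm38.p6 were matched for 4 of the 7 genes. The 250 bases before the transcription start are given for the 3 that held motifs from both of the boxes described here. A motif was taken at any place and on either strand, so its place need not be that of the module. The bases run 5′ to 3′ on the strand of the gene, with matches on either strand in capitals (for the longest motif, only the part it shares with the Y box core).
H2-Aa, chr17:34287824-34288073, minus strand: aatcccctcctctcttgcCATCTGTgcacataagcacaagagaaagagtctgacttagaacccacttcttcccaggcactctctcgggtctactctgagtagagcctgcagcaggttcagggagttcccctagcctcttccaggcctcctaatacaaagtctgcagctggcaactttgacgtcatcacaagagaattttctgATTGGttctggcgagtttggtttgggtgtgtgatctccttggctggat
H2-Eb1, chr17:34305617-34305866, plus strand: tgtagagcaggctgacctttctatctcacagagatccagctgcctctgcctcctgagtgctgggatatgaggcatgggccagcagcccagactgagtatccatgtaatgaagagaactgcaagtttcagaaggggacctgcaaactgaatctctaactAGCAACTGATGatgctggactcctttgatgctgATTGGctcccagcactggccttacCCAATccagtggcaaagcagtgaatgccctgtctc
H2-DMb1, chr17:34152941-34153190, plus strand: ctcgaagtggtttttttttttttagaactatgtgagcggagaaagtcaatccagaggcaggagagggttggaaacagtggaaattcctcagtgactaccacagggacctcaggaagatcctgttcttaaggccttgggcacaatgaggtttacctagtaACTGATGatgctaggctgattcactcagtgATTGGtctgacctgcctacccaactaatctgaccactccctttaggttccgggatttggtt
Motifs were searched on both strands. ATTGG, the core of the Y box bound by the trimeric factor NF-Y, began 48 bases before the start of *H2-Aa*, 59 bases before that of *H2-Eb1*, which had another on the opposite strand at 35 bases, and 61 bases before that of *H2-DMb1*, and occurred in 33.8% of 32851 promoters of that length. The longer form CTGATTGG, which contains ATTGG, was found in *H2-Aa* from 51 and in *H2-Eb1* from 62 bases before the start, and in 3.8% of all promoters. ACNGATG, part of the X box bound by the RFX complex, began 88 bases before the start in *H2-Eb1* and 91 bases before it in *H2-DMb1*, and was held by 8.3% of all promoters. In *H2-Aa* its match lay on the opposite strand, 232 bases before the start and far from ATTGG at 48 bases. It is thus not placed beside the Y box core as in *H2-Eb1* and *H2-DMb1*, and is not taken as an X box. AGCAAC was found in *H2-Eb1* alone among these promoters, 92 bases before the start and overlapping ACNGATG, against 12.2% of all promoters. For *H2-DMa* the table held 2 start sites, of which the second had ATTGG 198 bases before it and the other no match. These are matches of letters and not tested binding sites.

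Counts are expected counts, that is reads assigned to transcripts by a model, summed per gene. The WT libraries held 18417077 to 18695013 counts in all, and the Gpr174-/Y libraries 19173036 to 19394469. The trimmed mean of M values (TMM), a scaling that brings most genes to no change, gave factors of 0.873 to 0.952 for the WT and 1.08 to 1.12 for the Gpr174-/Y libraries. Without these factors the median log2 fold change of all genes was 0.28 in place of 0.00, which is as large as the differences of the genes described here, so each is given under both scalings. The deleted gene *Gpr174* had 8, 2 and 5 counts in the WT and 1, 0 and 0 in the Gpr174-/Y libraries. In CPM, counts scaled to library size and TMM factor, markers of mature muscle fibres summed to between 123611 and 177058 in WT and to between 54364.5 and 61267 in Gpr174-/Y muscles. In both groups replicate 2 lay between replicates 1 and 3 for most of 3859 abundant genes (86% in WT and 76.5% in Gpr174-/Y). With replicates 1 and 3 of each group alone, edgeR called 0 genes at an adjusted p of 0.05 and 5026 at an unadjusted p of 0.05, so no call below was made without replicate 2 of both groups, with 2 libraries in each. Whether the libraries are independent mice was taken from the methods and not tested, and n = 3 and the p-values would not hold if they were not.

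The 7 genes differed little between genotypes with TMM, where the 95% intervals of the log2 fold change lay between -0.51 and 0.40 for every one of them. Under total counts these intervals lay between -0.28 (*H2-Eb1*) and 0.74 (*H2-DMa*). With TMM, *H2-Eb1* was lower in the Gpr174-/Y muscles, and no other member passed the test, in the edgeR quasi-likelihood fit with Benjamini-Hochberg adjustment over all genes. The background was 27.6% of all genes called lower and 27% called higher. With total counts, *H2-DMa* and *H2-DMb1* were higher and no member was lower, against a background of 50.7% higher and 14% lower. No member passed an absolute log2 fold change of 1, which 8.28% of all genes did together with the adjusted p. The median log2 fold change of the 7 genes was -0.13 with TMM and 0.15 with total counts, where the medians of all genes were 0.00 and 0.28. In whole muscle, fewer cells of a type and less RNA per cell cannot be told apart.

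**Figure D1:**
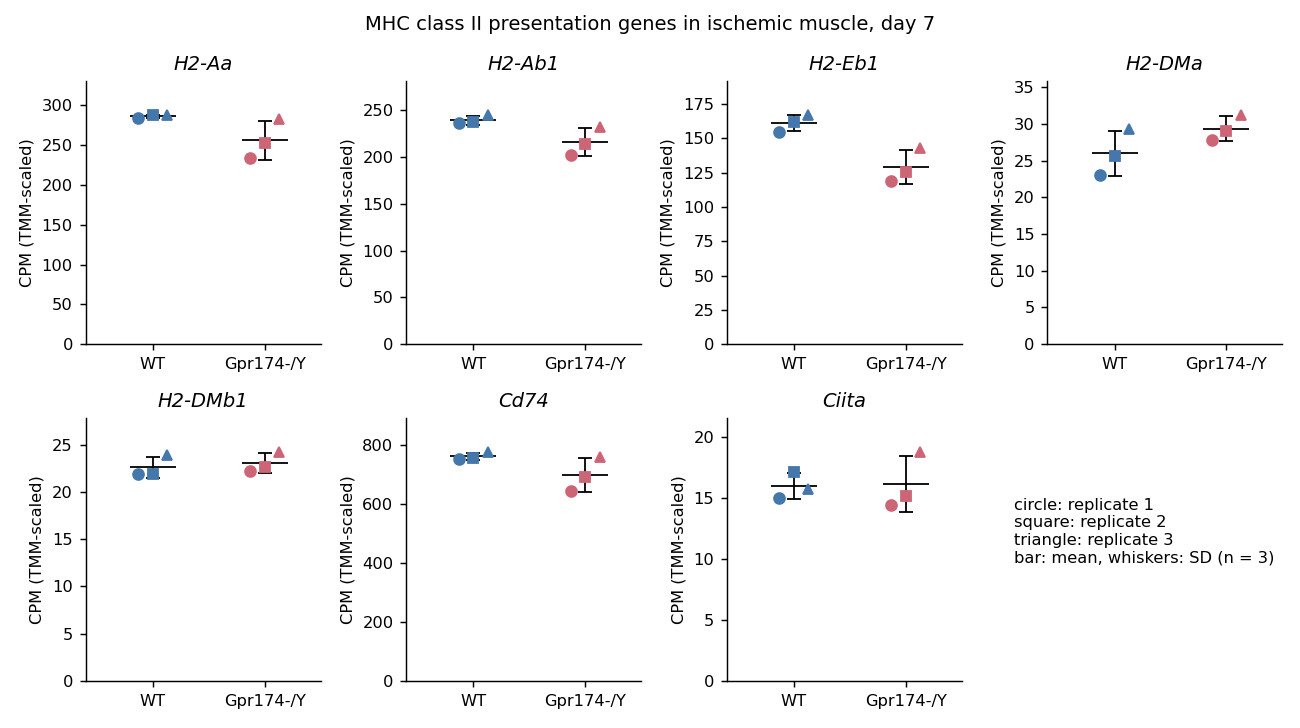
CPM with TMM scaling (vertical axes, from 0) of the 7 genes in each WT (blue) and Gpr174-/Y (red) library, with means and SD (n = 3). The Gpr174-/Y libraries of H2-Eb1, between 119 and 143, lie below the WT libraries, between 155 and 167, while those of H2-DMb1 and Ciita overlap the WT libraries.

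*H2-Eb1*, the gene of the E β chain, had 155, 162 and 167 CPM in WT replicates 1, 2 and 3 and 119, 126 and 143 CPM in the Gpr174-/Y replicates. Each Gpr174-/Y library was below each WT library. The mean was 161 ± 6.08 CPM in WT and 129 ± 12.3 CPM in Gpr174-/Y muscles (SD, n = 3), a log2 fold change of -0.32 (standard error 0.079, 95% interval -0.51 to -0.13, edgeR adjusted p = 0.0136), or 0.802-fold. With total counts the log2 fold change was -0.04 (adjusted p = 0.711), and the call was also lost without WT replicate 2 (adjusted p = 0.0607) and without Gpr174-/Y replicate 2 (0.0623). The unscaled counts, 2485, 2724 and 2966 in WT and 2494, 2667 and 3074 in Gpr174-/Y libraries, overlapped.

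The chains of the A molecule, which these mice display, were not called. *H2-Aa*, the α chain, had 284, 287 and 287 CPM in the WT and 233, 252 and 283 CPM in the Gpr174-/Y libraries (log2 fold change -0.16, 95% interval -0.35 to 0.03, adjusted p = 0.129). Its WT libraries were nearly equal, and Gpr174-/Y replicate 3 came just under them. *H2-Ab1*, the β chain, had 236, 237 and 245 CPM in the WT and 202, 214 and 233 CPM in the Gpr174-/Y libraries (log2 fold change -0.15, 95% interval -0.31 to 0.01, adjusted p = 0.107). Of the members, these chains and *H2-Eb1* had no overlap of CPM between groups, as did 65.6% of all genes tested. Without Gpr174-/Y replicate 3, the highest of its group, *H2-Aa* (log2 fold change -0.24, adjusted p = 0.0377) and *H2-Ab1* (-0.20, 0.0488) were called lower. With total counts the direction turned, to a log2 fold change of 0.11 (adjusted p = 0.324) for *H2-Aa* and 0.13 (adjusted p = 0.23) for *H2-Ab1*.

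*Cd74*, which encodes the invariant chain, was the most abundant member, with 753, 755 and 775 CPM in the WT and 645, 690 and 758 CPM in the Gpr174-/Y libraries. Gpr174-/Y replicate 3 lay within the WT range and replicates 1 and 2 below it. The log2 fold change was -0.13 (95% interval -0.32 to 0.07, adjusted p = 0.231) with TMM and 0.15 (adjusted p = 0.221) with total counts, so that its direction turned too. *Cd74* makes a short and a long form of the chain, and the long form has an extra exon for a domain that inhibits cysteine proteases. The transcript of the long form took 29.7%, 29.5% and 28.3% of the counts of *Cd74* in the WT and 28.4%, 27.9% and 28.6% in the Gpr174-/Y libraries. The shares overlapped, and their whole range was below 2 percentage points.

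*H2-DMa* and *H2-DMb1* encode the peptide exchange factor H2-DM. *H2-DMa* had 23.1, 25.6 and 29.3 CPM in the WT and 27.8, 29.1 and 31.2 CPM in the Gpr174-/Y libraries, with WT replicate 3 inside the Gpr174-/Y range. Its log2 fold change was 0.17 (95% interval -0.05 to 0.40, adjusted p = 0.16) with TMM and 0.44 (adjusted p = 0.0174) with total counts, and without WT replicate 3 it was called higher with TMM too (0.28, adjusted p = 0.0142). *H2-DMb1* had 21.9, 22.0 and 23.9 CPM in the WT and 22.2, 22.7 and 24.2 CPM in the Gpr174-/Y libraries, which overlapped. Its log2 fold change was 0.03 (95% interval -0.12 to 0.18, adjusted p = 0.733) with TMM and 0.30 (adjusted p = 0.0207) with total counts. Reads of *H2-DMb1* could be split with its near-identical neighbour *H2-DMb2*, which had 2.05 to 3.76 CPM, so both values are uncertain to that extent. The main transcript of *H2-DMa* carried 82.4%, 87.0% and 86.0% of its counts in the WT and 81.7%, 76.8% and 78.8% in the Gpr174-/Y libraries, without overlap. The next transcript carried 10.6%, 6.56% and 10.4% in the WT and 13.7%, 14.4% and 15.0% in the Gpr174-/Y libraries. These shares are model estimates on few counts, and the difference was not tested.

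*Ciita*, the coactivator, was the least abundant, with 15.0, 17.1 and 15.7 CPM in the WT and 14.4, 15.2 and 18.7 CPM in the Gpr174-/Y libraries. The groups overlapped, with the highest and the lowest value both among the Gpr174-/Y libraries. The log2 fold change was 0.02 (95% interval -0.25 to 0.28, adjusted p = 0.914) with TMM and 0.29 (adjusted p = 0.0858) with total counts. The unscaled counts were 241, 287 and 280 in the WT and 302, 322 and 403 in the Gpr174-/Y libraries, and did not overlap. The share of all genes without overlap in unscaled counts was not computed. *Ciita* is transcribed from separate promoters in dendritic cells, B cells and cells stimulated with interferon-γ, but of its 6 transcripts 5 had no counts in at least 1 library, so these forms could not be told apart here.

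Levels of different genes were compared by the deposited FPKM, a fragment count scaled for transcript length and library size, which accounts for length. Over the 6 libraries *Cd74* had 536 to 695 FPKM, place 96 among all genes by mean. *H2-Aa* followed with 229 to 294, *H2-Ab1* with 180 to 228 and *H2-Eb1* with 79.4 to 99.0 FPKM. *H2-DMb1* (15.5 to 22.0 FPKM) and *H2-DMa* (11.3 to 19.0 FPKM) overlapped, and *Ciita* was last with 1.99 to 3.1 FPKM, place 10773. All other neighbours in this order did not overlap. The invariant chain thus stood above the chains it binds, and H2-DM well below them, in each library of either genotype. FPKM carries no TMM factor. On that scale the groups did not overlap for *H2-DMa*, *H2-DMb1* and *Ciita*, all higher in Gpr174-/Y muscles, and overlapped for the other 4 genes. The share of all genes without overlap in FPKM was not computed. The median log2 fold change of all genes on log2(FPKM + 1) was 0.24, so a higher value is not particular to these genes.

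Ratios of counts within a library do not depend on the scaling. They were chosen after the values were seen, so they are described without a test. *H2-Eb1* had 54.5, 56.4 and 58.0 counts per 100 counts of *H2-Aa* in the WT and 51.1, 49.8 and 50.6 in the Gpr174-/Y libraries, with no overlap, a ratio of the means of 0.897. *H2-Ab1* had 83.2, 82.5 and 85.1 per 100 counts of *H2-Aa* in the WT and 86.6, 84.8 and 82.3 in the Gpr174-/Y libraries, which overlapped. The chains of the A molecule thus kept close to a fixed ratio, and the E β chain was lower beside them in the Gpr174-/Y muscles. Per 100 counts of the 3 classical chains together, *H2-DMa* and *H2-DMb1* had 6.67, 6.93 and 7.62 counts in the WT and 9.02, 8.75 and 8.42 in the Gpr174-/Y libraries, and *Cd74* had 112, 110 and 111 in the WT and 116, 117 and 115 in the Gpr174-/Y libraries. *Ciita* had 22.2, 24.9 and 22.5 counts per 1000 in the WT and 26.0, 25.6 and 28.5 in the Gpr174-/Y libraries. In these 3 ratios the Gpr174-/Y libraries all lay above the WT libraries. Their denominator was itself lower in each Gpr174-/Y library with TMM, where the classical chains summed to 555 to 659 CPM against 675 to 699 CPM in the WT. A gene of little change with TMM would thus give higher ratios too, and these ratios are not particular to class II. The share of all genes without overlap in such ratios was not computed.

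**Figure D2:**
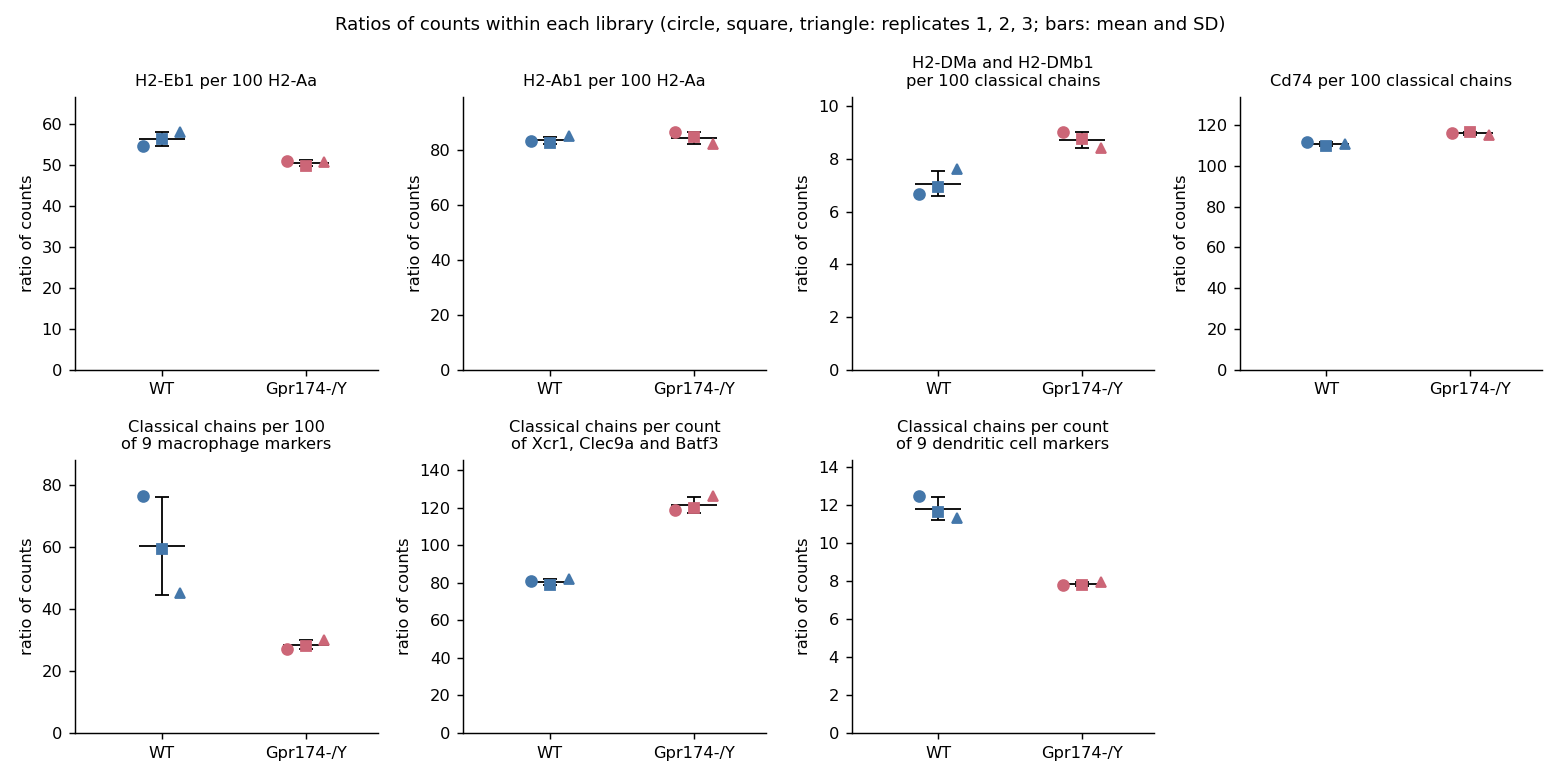
Ratios of counts within each library (vertical axes, from 0) for WT (blue) and Gpr174-/Y (red), with means and SD (n = 3). H2-Eb1 per 100 H2-Aa lies lower in Gpr174-/Y (49.8 to 51.1 against 54.5 to 58.0), and the classical chains per 100 macrophage marker counts lie at 27.2 to 30.0 against 45.1 to 76.5. The macrophage markers were themselves higher in Gpr174-/Y.

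The other genes of the pathway were taken from lists chosen by function, 46 genes in all, of which 44 were tested. In Gpr174-/Y muscles 12 of them were higher and 4 lower with TMM, against 19 higher and 0 lower with total counts. Of all genes, 27% were higher and 27.6% lower with TMM, and 50.7% and 14% with total counts, so the share that was higher was near the background with TMM and below it with total counts. Without WT replicate 3 the number of pathway genes called with TMM was 29, in a fit that called 9165 of all 14587 genes tested. The median log2 fold change of the pathway genes was 0.09 with TMM and all libraries.

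Genes of the endosome, where the invariant chain is cut and antigen is made, were mostly higher. Of 7 genes 6 rose with TMM and 7 with total counts, and the median log2 fold change was 0.88. *Ctss*, cathepsin S, which makes the last cuts of the invariant chain in dendritic cells and macrophages, had 154, 232 and 343 CPM in the WT and 462, 486 and 525 CPM in the Gpr174-/Y libraries (log2 fold change 1.01, edgeR adjusted p = 0.0161). All Gpr174-/Y libraries were above WT replicate 3, the highest WT library. Its call was lost without WT replicate 2 (adjusted p = 0.0596) and without Gpr174-/Y replicate 3 (0.0565). The thiol reductase gene *Ifi30* (0.99), the cathepsin genes *Ctsb* (0.90), *Ctsl* (0.83) and *Ctsd* (0.72) and the legumain gene *Lgmn* (0.88) rose as well, and *Sppl2a*, the protease that clears the remnant of the invariant chain from the membrane, did not pass (-0.09, adjusted p = 0.187). These proteases also serve lysosomes in cells without class II. *Cd74* had 488, 325 and 226 counts per 100 counts of *Ctss* in the WT and 140, 142 and 144 in the Gpr174-/Y libraries. With *Ctss* higher in each Gpr174-/Y library, a gene of little change would give a lower ratio too.

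Of the 8 genes of the complex that CIITA joins on the promoter, *Ciita* included, 1 was higher and 2 were lower with TMM, neither share above that of all genes. In that fit *Rfx5* (log2 fold change -0.29, adjusted p = 0.00437) and *Rfxap* (-0.42, adjusted p = 0.00607) of the RFX complex were lower and *Nfya* of NF-Y was higher (0.33, adjusted p = 0.00598). With total counts *Rfx5* and *Rfxap* did not pass the test (log2 fold changes -0.02 and -0.15), while *Nfya* (0.60) and *Creb1* (0.32) were higher. *Rfxank*, *Nfyb* and *Nfyc* did not pass under either scaling. *Rfx5* had 23.1, 23.8 and 24.1 CPM in the WT and 19.97, 19.3 and 18.9 CPM in the Gpr174-/Y libraries, a narrow range in either group. Without WT replicate 3, 4 genes of the complex were called lower, in a fit that called 4539 of all 14587 genes tested lower.

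Interferon-γ, the main inducer of *Ciita* outside B cells and dendritic cells, was hardly detected, with 1 to 5 counts of *Ifng* in each library, and was removed by the filter. Of 7 tested genes of its signal, *Socs1*, a feedback inhibitor, was higher (log2 fold change 0.56, adjusted p = 0.0366) and *Ifngr2*, a receptor chain, was lower with TMM (-0.32, adjusted p = 0.00849) but not with total counts (-0.04). With total counts 4 of the 7 were higher, *Socs1* (0.83), *Ifngr1* (0.35), *Jak2* (0.33) and *Jak1* (0.14), and none was lower. *Irf1*, a factor induced by it, did not pass (0.22, adjusted p = 0.289). The call of *Socs1* was lost without any library other than WT replicate 3 (edgeR adjusted p from 0.0528 to 0.113). None of the 11 genes of MHC class I presentation passed the test with TMM, the largest log2 fold change being 0.37 for *Tapbp* (adjusted p = 0.187), and *Erap1* alone passed with total counts. Summed class I genes ranged from 1319 to 2620 CPM in the WT and from 1990 to 2152 CPM in the Gpr174-/Y libraries. Without WT replicate 3, the highest, 6 class I genes were called higher, in a fit that called 4626 of all 14587 genes tested higher.

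The non-classical chains *H2-Oa* and *H2-Ob*, which form an inhibitor of H2-DM in B cells and dendritic cells, were low, at 0.706 to 1.31 and 0.977 to 2.08 CPM, and did not pass (log2 fold changes -0.40 and -0.53, adjusted p = 0.188 and 0.0608), nor did *H2-Eb2* (0.10) and *H2-DMb2* (-0.20). No gene in the deposited data carried the symbol *H2-Ea*, so it was not analysed here. *Marchf1*, a ubiquitin ligase that removes class II from the surface, was higher (log2 fold change 0.66, adjusted p = 0.0188), as was the costimulatory gene *Cd80* (0.54, adjusted p = 0.0165), whereas *Cd86*, *Cd40* and *Cd83* did not pass with TMM. With total counts *Cd86* was higher too (0.55, edgeR adjusted p = 0.0472). The call of *Marchf1* was lost without WT replicate 2 (0.0677) or Gpr174-/Y replicate 3 (0.0571), and that of *Cd80* without WT replicate 2 (0.0643) or Gpr174-/Y replicates 1 (0.0525) or 2 (0.0618). The CD74 protein also acts as a receptor for the cytokine MIF together with CD44. *Cd44* (log2 fold change 1.12, adjusted p = 0.00187) and *Mif* (0.19, adjusted p = 0.0134; 0.0611 without WT replicate 2 and 0.0622 without Gpr174-/Y replicate 2) were higher, and *Ddt*, a homolog of *Mif*, was lower with TMM (-0.50, adjusted p = 0.00829) but did not pass with total counts (-0.22, adjusted p = 0.0647).

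**Figure D3:**
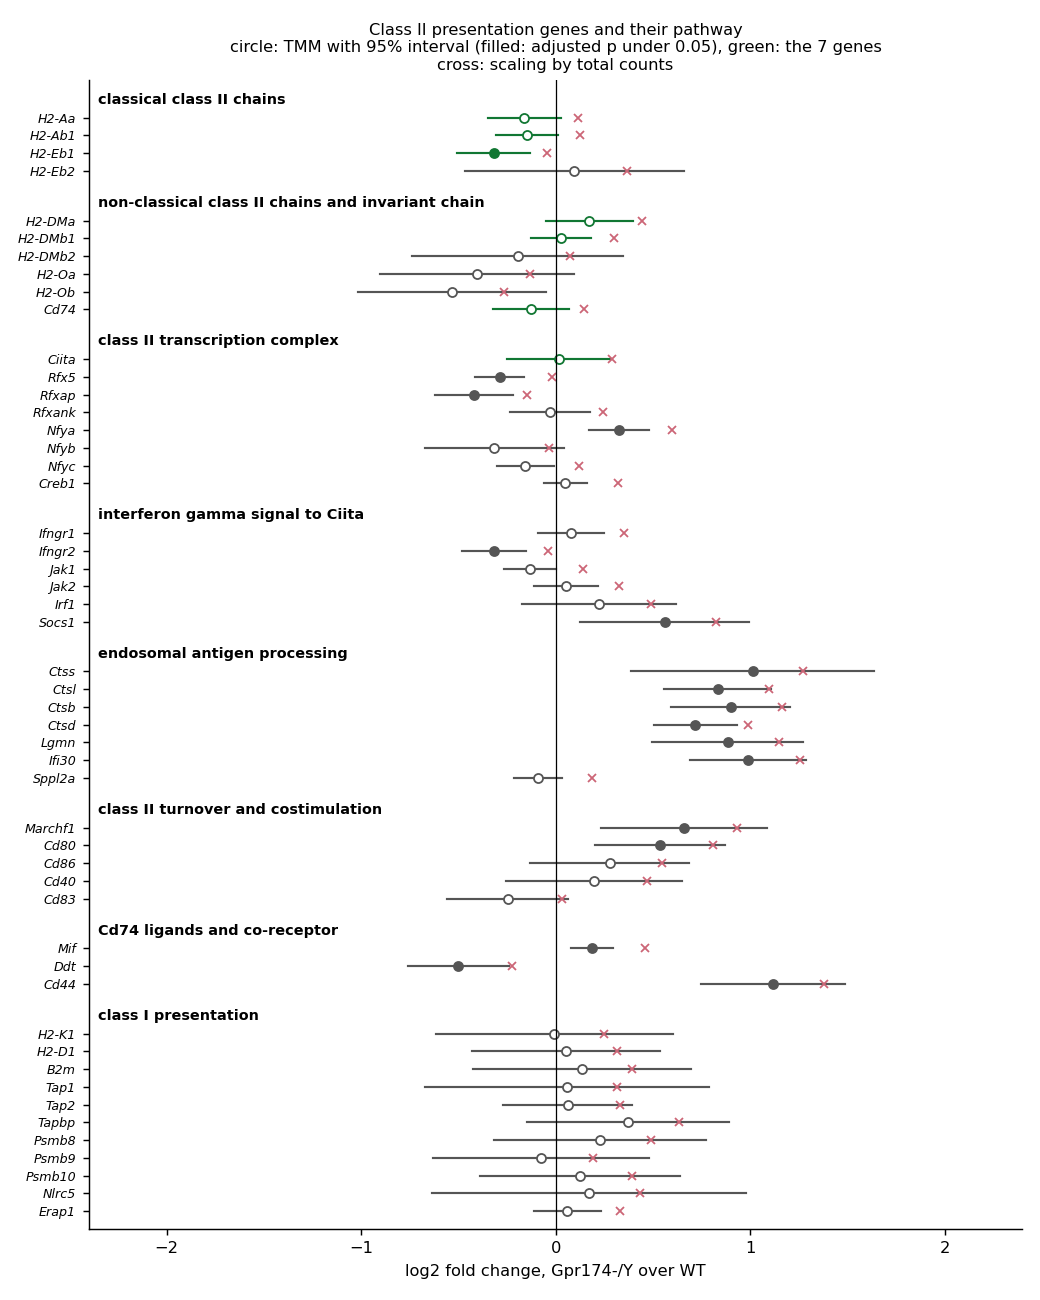
Log2 fold changes (horizontal axis, Gpr174-/Y over WT) of the 7 genes (green) and other tested pathway genes (grey) with TMM and 95% intervals, filled where the adjusted p was under 0.05, and with total counts (crosses). The 6 endosomal genes that rose lie between 0.72 and 1.01, to the right of all 7 class II genes, of which the highest is 0.17, and Sppl2a lies at -0.09.

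Markers of the cells that carry class II moved apart. Of 9 macrophage markers 8 rose, with a median log2 fold change of 0.77, among them *Csf1r* (0.77), *Cd68* (1.22) and *Itgam* (1.60), and *Fcgr1* did not pass (0.78, adjusted p = 0.0817). The markers summed to 881, 1157 and 1548 CPM in the WT and 2040, 2102 and 2195 CPM in the Gpr174-/Y libraries, and none was at 0. The number called was 5 without WT replicate 2 and 5 without Gpr174-/Y replicate 3. The 4 markers of all leukocytes rose (median 0.80). Of 9 dendritic cell markers 6 fell with TMM and *Itgax*, which macrophages also express, rose (1.12). Those that fell were *Zbtb46* (-0.50), a factor of conventional dendritic cells, *Clec9a* (-0.85), *Xcr1* (-0.73) and *Batf3* (-0.72) of the cross-presenting type, *Cd209a* (-0.92) and *Siglech* (-0.67). With total counts only *Clec9a* of them passed (-0.58, adjusted p = 0.00301), and with TMM 3 dendritic cell markers were called lower without Gpr174-/Y replicate 1 and 3 without Gpr174-/Y replicate 2. The call of *Cd209a* was lost without any library other than WT replicate 3 (edgeR adjusted p from 0.0535 to 0.0826), that of *Batf3* without WT replicate 2 (0.0846) or Gpr174-/Y replicates 1 (0.0667) or 2 (0.0503), and that of *Siglech* without WT replicate 1 (0.0556) or Gpr174-/Y replicates 1 (0.0579) or 2 (0.0723). *Xcr1*, *Clec9a* and *Batf3* were low, at 0.669 to 4.23 CPM. B cell markers summed to 2.42 to 3.77 CPM, and only 2 of the 8 passed the filter on low counts. Of the markers of other cells, 1 of 3 tested for resident macrophages, 2 of 4 for monocytes, 0 of 5 for T cells and 1 of 2 for neutrophils were higher with TMM, while 1 neutrophil marker, 5 of 5 endothelial markers and 10 of 10 fibre markers were lower. The part of any of these cells in the levels of the class II genes was not tested.

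**Figure D4:**
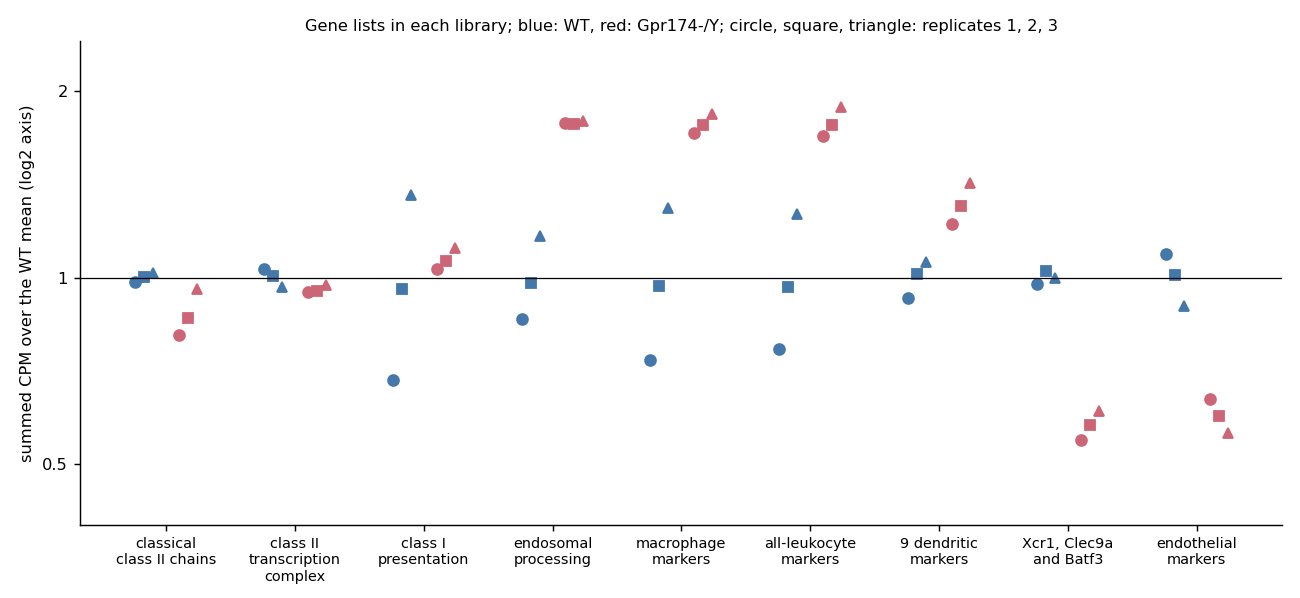
Summed CPM of gene lists in each library, divided by the WT mean (log2 vertical axis), for WT (blue) and Gpr174-/Y (red). Macrophage markers sum to 2040 to 2195 CPM in Gpr174-/Y against 881 to 1548 in WT, while the classical class II chains sum to 555 to 659 against 675 to 699.

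Beside the macrophage markers the classical chains were lower in the Gpr174-/Y muscles. *H2-Aa*, *H2-Ab1* and *H2-Eb1* together had 76.5, 59.4 and 45.1 counts per 100 counts of the 9 macrophage markers in the WT and 27.2, 28.1 and 30.0 in the Gpr174-/Y libraries. *Cd74* had 509, 428 and 361 counts per 100 counts of *Csf1r*, the receptor that macrophages need to survive, in the WT and 224, 227 and 231 in the Gpr174-/Y libraries. *Ciita* had 38.4, 34.9 and 24.6 counts per 100 counts of *Ptprc*, the gene of the leukocyte antigen CD45, in the WT and 18.2, 18.5 and 19.6 in the Gpr174-/Y libraries. All 3 ratios were lower in each Gpr174-/Y library than in each WT library, and the WT libraries differed among themselves more than the Gpr174-/Y libraries did. The denominators were themselves higher in each Gpr174-/Y library than in each WT library. A gene of little change would thus give lower ratios too, and these ratios are not particular to class II. Against all 9 dendritic cell markers, of which *Itgax* was the most abundant and whose sum was 54.1 to 61.9 CPM in the WT and 71.2 to 82.9 CPM in the Gpr174-/Y libraries, the classical chains had 12.5, 11.6 and 11.3 counts per count in the WT and 7.80, 7.76 and 7.94 in the Gpr174-/Y libraries. Against *Xcr1*, *Clec9a* and *Batf3* alone, 3 markers that fell and were picked after their values were seen, they had 80.9, 78.5 and 81.8 counts per count in the WT and 118, 120 and 126 in the Gpr174-/Y libraries, so the direction depended on which of these markers were summed. The WT libraries, whose macrophage markers ranged from 881 to 1548 CPM, had classical chains of 675, 687 and 699 CPM.

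Among the libraries the members varied together. In the Gpr174-/Y group replicate 3 was the highest for 7 of the 7 genes, and in the WT group replicate 3 was the highest for 6 of them. With replicate 2 in the middle for 86% (WT) and 76.5% (Gpr174-/Y) of the 3859 abundant genes, replicate 3 was often the highest or lowest elsewhere too. How often it was the highest among all genes was not computed. Shared variation across libraries was thus not shown to be particular to the members. Over the 21 pairs of members, Pearson's r of log2 CPM across the 6 libraries ranged from -0.30 (*H2-Eb1* with *H2-DMa*) to 0.99 (*H2-Aa* with *Cd74*), with a median of 0.51. After each group's mean was subtracted it ranged from 0.49 to 1.00 with a median of 0.84. *H2-Aa*, *H2-Ab1*, *H2-Eb1* and *Cd74* correlated with each other above 0.93 across the libraries, and *H2-DMa* was negatively correlated with each of them. The points share libraries and scaling, and 6 of them give these values little precision. Of 9895 genes compared, those most like the mean profile of the 7 genes were *Zfp865* (r = 0.99), *Gbp10*, *Clk1*, *Kdm7a* and *Tbk1* (each r = 0.96) over the 6 libraries. As the highest of 9895 values on 6 points, these r were picked for their size and do not show shared regulation.

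The choice of scaling set the direction for 3 of the 7 genes. *H2-Aa*, *H2-Ab1* and *Cd74* were lower in Gpr174-/Y muscles with TMM and higher with total counts or FPKM, while *H2-Eb1* kept its negative sign and *H2-DMa* its positive sign in all 17 alternatives.

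**Figure D5:**
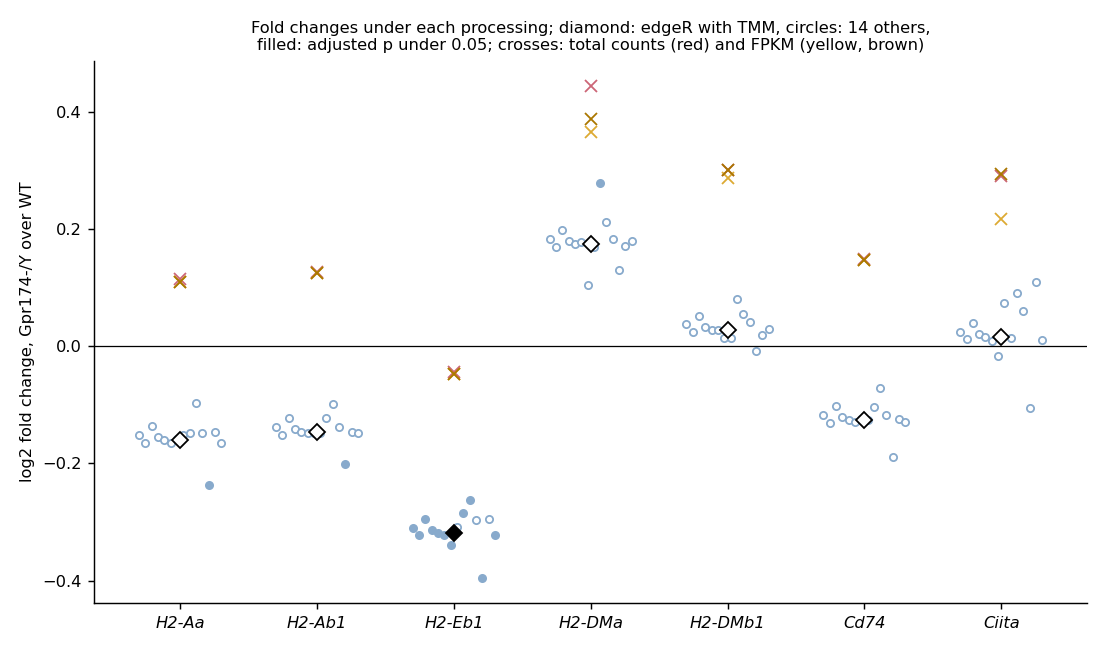
Log2 fold changes (vertical axis, Gpr174-/Y over WT) of the 7 genes in edgeR with TMM (diamonds), with total counts or FPKM (crosses) and in the other 14 fits (circles), filled where the adjusted p was under 0.05 (crosses show no test). H2-Eb1 lies between -0.40 and -0.04, and H2-DMa between 0.10 and 0.44.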

How the data were processed

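RNA from ischemic gastrocnemius of 3 WT and 3 Gpr174-/Y mice was sequenced on the BGISEQ platform per the methods, while the labels name an Illumina TruSeq kit. The authors deposited expected counts (unnormalized model estimates of reads) for 58843 RefSeq transcripts, with FPKM and TPM beside them, and TPM was not used. The submitters' processing notes name HISAT2 2.0.4, Bowtie2 2.2.5, RSEM 1.2.12 and GRCm39. Strand use is not given in the sources used here. Libraries were grouped by their labels, with replicates taken as separate mice.

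Expected counts were summed by Entrez identifier and rounded. Of 18089 genes 99.71% had a symbol. With 3 counts taken as the smallest detectable number, the floor was 0.14 to 0.187 CPM, for counting error only. Groups were compared with edgeR 4.0.16 in R 4.3.3 (TMM, filterByExpr, robust quasi-likelihood F-test, Benjamini-Hochberg, adjusted p threshold 0.05, size threshold 1 on the log2 scale in either direction). The study's DEGseq was not used. On simulated data with 200 genes changed 2-fold the fit recovered 97.5%, with 5 false calls among 14373 genes. The simulation gave all genes a common dispersion, whereas 7863 genes were called in the data. It thus does not show how well the smaller differences of the members are recovered, nor the rate of false calls in these data. Correlations used log2 CPM with a prior count of 2, and the search for like genes a mean of at least 10 CPM. Alternatives were DESeq2 1.42.0 (size factors, Wald test), upper-quartile and total-count scaling, limma 3.58.1 (voom, or log2 FPKM with 1 or 0.1 added, for genes of at least 1 FPKM in 3 libraries, where fold changes of low genes are understated), other filters, leaving out libraries and a replicate block.

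The text names all members, and genes of function and marker lists, of which some are not reported here. Members, lists and tests were chosen with earlier results of these data known. Promoters and motifs come from RefSeq on GRCm38.p6, another build than that of the files. Other scripts used Python 3.11.15, pandas 2.3.3 and scipy 1.17.1.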

Additional observations from a re-analysis of the deposited data

How the results depend on the processing

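Over 17 alternatives the 7 genes gave 119 fold changes, of which 92 stayed the same in sign and call, 9 passed it newly, 6 no longer passed and 12 turned sign. With total counts 2 members were called, 2 higher and 0 lower, and with limma on log2(FPKM + 1) and on log2(FPKM + 0.1) the counts were also 2, 2 and 0. The median of the members was then 0.148, 0.146 and 0.147, and *H2-Aa* (0.1145, 0.1087 and 0.1091), *H2-Ab1* (0.1272, 0.1244 and 0.125) and *Cd74* (0.1481, 0.1463 and 0.1466) turned sign. Genes higher in all were 7303, 6820 and 6765, with 78.4%, 78.9% and 79% of calls higher against 49.5% with TMM. The shift of the median of all genes, 0.28, 0.24 and 0.28, accompanied these changes by construction. Leaving out 1 library gave 0 to 3 called members (0 to 1 higher, 0 to 3 lower), a median of -0.19 to -0.07, 5457 to 9165 called genes (2651 to 4626 higher) and 11 to 29 called pathway genes, against 16 with all libraries, 29 being without WT replicate 3. *Ciita* turned sign without WT replicate 1 (-0.0161) and without Gpr174-/Y replicate 3 (-0.1061), with a range over the 6 libraries of -0.1061 to 0.09, as did *H2-DMb1* there, with a range of -0.0084 to 0.0799. The cause was not tested. With replicates 1 and 3 of each group 0 members, 0 lower, 0 genes in all, 0 higher and 0 pathway genes were called, with 5026 genes and 0 members at an unadjusted p of 0.05, and *H2-Eb1* stood at -0.29 (adjusted p = 0.193). Same-numbered libraries did not deviate together (r of 0.016, -0.028 and -0.008), and with the replicate block *H2-Eb1* stood at -0.32 (adjusted p = 0.0177), with 3305 genes higher and 3507 lower. *H2-Eb2*, *H2-Oa* and *H2-Ob* had 8 to 37 counts in each library, the fewest among the class II chains, which limits their precision.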
